A study of Mus musculus with 12 samples.

Results

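Baseline small RNA was compared between mature mouse sperm and a Sertoli cell line under control conditions. The comparison took 5 of the 12 libraries of the series, chosen by their labels: 3 libraries of sperm from mice on the control diet (CD sperm) and 2 libraries of control TM4 cells (TM4 Ctrl). The CD sperm came from the epididymis of C57BL6/J males, as the study spells the strain, fed a control diet with 16% of its calories from fat for 7 weeks, starting, by the labels, at 4 weeks of age, and 3 sperm samples were pooled into each library. TM4 is a line of mouse Sertoli cells, the somatic cells that nurse germ cells in the testis, and was grown in medium with 10% serum. The labels give neither group a transgene or a drug, and the study's methods call the control cells of the Compound C arm non-treated. The other 7 libraries took no part in the main comparison. They held 3 libraries of sperm from mice on a high fat diet (HFD sperm). The rest were 2 each of TM4 cells given Compound C, an inhibitor of the kinase AMPK, or overexpressing Ang. All 7 were used to see whether a difference also appeared in libraries that the comparison had not used. They also entered an alternative fit that modelled all 12 libraries together. Tissue of origin, life in culture, preparation and any sequencing batch all changed together between the groups, and their parts in the differences cannot be told apart.

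Most of a small RNA library consists of microRNAs (miRNAs), which are cut from hairpin precursors and repress mRNAs through the seed at their 5′ end, and of pieces of longer RNAs. A tRNA fragment (tRF) that starts at the 5′ end of a mature tRNA is called tRF5 here, and one that ends at its 3′ end is called tRF3. Every mature tRNA receives a CCA tail that mouse nuclear tRNA genes do not encode, and the amino acid is attached to it. Sperm shed most of their cytoplasm and ribosomes late in development and are known to carry abundant tRF5s, whereas Sertoli cells are transcriptionally active somatic cells. piRNAs are germline small RNAs that silence transposons, and snoRNAs guide chemical modification of rRNA in the nucleolus.

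The mature miRNAs below belong to the hairpins on which the comparison turned. The first set stood higher in sperm and the second higher in TM4. Sequences are from RefSeq (GRCm38.p6), with the seed (bases 2 to 8) in capitals. The files count whole hairpins, so the arm shown is the one for which the family is usually named and not one measured here. Sequences that share a seed follow each other.
miR-10b-5p: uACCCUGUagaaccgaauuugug
miR-10a-5p: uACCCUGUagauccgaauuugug
miR-148a-3p: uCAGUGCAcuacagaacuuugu
miR-204-5p: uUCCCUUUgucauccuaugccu
miR-200a-3p: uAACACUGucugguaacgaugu
miR-141-3p: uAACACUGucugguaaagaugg
miR-200b-3p: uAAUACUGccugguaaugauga
miR-429-3p: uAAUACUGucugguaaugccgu
miR-200c-3p: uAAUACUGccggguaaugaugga
miR-34b-5p: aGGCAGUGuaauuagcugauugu
miR-449a-5p: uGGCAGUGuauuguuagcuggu
miR-871-3p: uGACUGGCaccauucuggauaau
miR-470-5p: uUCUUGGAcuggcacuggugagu
miR-881-3p: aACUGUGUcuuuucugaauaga
miR-465c-5p: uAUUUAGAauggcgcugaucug
miR-451a: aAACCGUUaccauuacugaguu
The sequences of the hairpins that stood higher in TM4 were as follows.
miR-99b-5p: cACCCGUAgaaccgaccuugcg
miR-100-5p: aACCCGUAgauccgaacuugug
miR-21a-5p: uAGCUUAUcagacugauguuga
miR-22-3p: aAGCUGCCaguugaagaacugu
miR-183-5p: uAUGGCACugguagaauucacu
miR-221-3p: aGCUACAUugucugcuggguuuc
miR-222-3p: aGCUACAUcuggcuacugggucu
miR-322-5p: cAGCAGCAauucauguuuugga
miR-17-5p: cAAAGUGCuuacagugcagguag
miR-20a-5p: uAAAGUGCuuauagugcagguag
miR-93-5p: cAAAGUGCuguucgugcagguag
miR-92a-3p: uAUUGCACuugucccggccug
miR-25-3p: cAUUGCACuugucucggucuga
miR-193a-3p: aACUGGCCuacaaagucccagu
miR-10a-5p and miR-100-5p are printed because they share a seed with miR-10b-5p and miR-99b-5p. Their own hairpins were not called different on both scales used below. Nor was mir-22, one of the 4 most abundant hairpins of TM4, called on both. miR-17-5p and miR-20a-5p are shown beside miR-93-5p for their shared seed. miR-10b-5p lies at chr2:74726074-74726096 (+) and miR-10a-5p at chr11:96317186-96317208 (+). The X chromosome holds miR-871-3p at chrX:66810438-66810460 (-), miR-470-5p at chrX:66813995-66814017 (-), miR-881-3p at chrX:66801954-66801975 (-) and the first copy of miR-465c-5p at chrX:66826004-66826025 (-). It also holds miR-221-3p at chrX:19146307-19146329 (-), miR-222-3p at chrX:19146901-19146923 (-) and miR-322-5p at chrX:53054306-53054327 (-).

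The sperm libraries held 31710445 to 35970041 clean reads and the TM4 libraries 54081799 and 64038150, and 73.8 to 76.3% and 69.2 and 71.3% of them matched the genome. Values below add the reads that matched the genome and those that did not. The labels do not say whether the TM4 libraries came from separate cultures, so a p-value refers only to the spread between these samples. The edgeR tests used below estimate that spread partly over all features of a kind. The sizes of their adjusted p-values are therefore not comparable between tRFs, hairpins and other subclasses. A share was compared by a two-sided exact permutation test. With 3 against 2 libraries it cannot go below 0.2, so no share could pass 0.05. In bulk samples, fewer cells of a type and less RNA per cell cannot be told apart.

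Sperm held larger shares of tRNA and rRNA fragments and smaller shares of miRNA and snoRNA reads than TM4 cells. Mature tRNAs took 11.6%, 8.04% and 13.8% in sperm and 2.55% and 2.11% in TM4. The mean share was 11.2% ± 2.93 (SD, n = 3) in sperm and 2.33% ± 0.314 (SD, n = 2) in TM4, a ratio of 4.79. The groups did not overlap (exact permutation p = 0.2, 0.236 after Benjamini-Hochberg adjustment over 13 classes). rRNA took 24.7%, 25.2% and 16.5% in sperm and 7.41% and 6.89% in TM4, again without overlap. CD sperm replicate 3 had the lowest rRNA share of the sperm libraries and the highest tRNA share.

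The miRNA share went the other way, with 38.9%, 36.0% and 40.1% in sperm and 52.1% and 55.8% in TM4. snoRNAs took 0.778% ± 0.0936 (SD, n = 3) in sperm and 2.99% ± 0.0467 (SD, n = 2) in TM4. Reads on Ensembl processed transcripts, a class of noncoding transcripts without an open reading frame, took 0.254% ± 0.0368 (SD, n = 3) in sperm and 1.44% ± 0.184 (SD, n = 2) in TM4. In these classes the groups did not overlap either, at the same permutation p of 0.2. The snRNA and lincRNA shares overlapped between the groups.

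**Figure D1:**
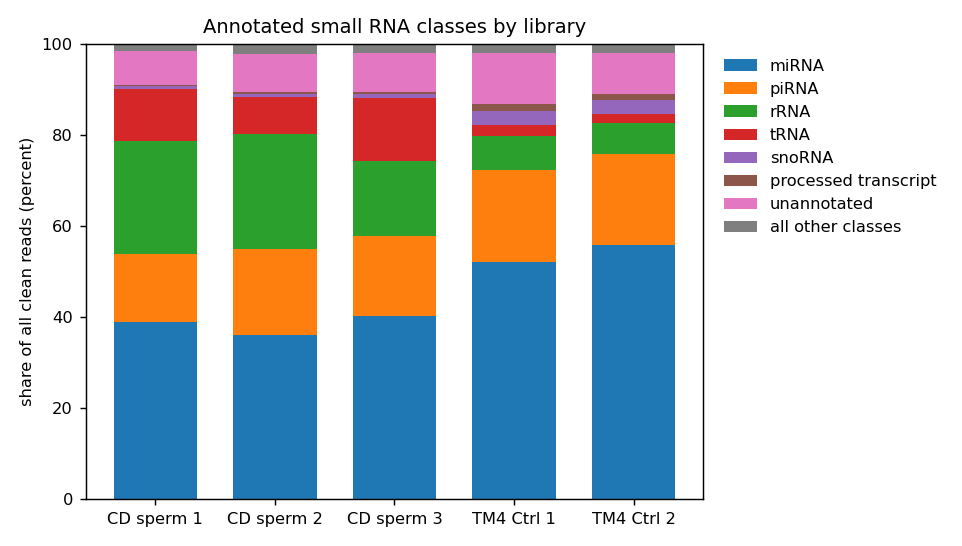
Stacked bars of the share of all clean reads (percent) annotated to each class in the 3 CD sperm and 2 TM4 Ctrl libraries. The tRNA and rRNA segments are larger in every sperm library (8.04 to 13.8% tRNA) than in either TM4 library, and the miRNA segment is smaller.

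Reads annotated to piRNAs lay closer together, at 15%, 19% and 17.7% in sperm and 20.2% and 20% in TM4. Most of them did not match the mouse genome, and the matched part was 29.0, 47.6 and 33.4% of piRNA reads in sperm and 12.4 and 12.3% in TM4. Of all clean reads, the matched piRNA reads took 4.36%, 9.06% and 5.92% in sperm and 2.51% and 2.46% in TM4, and the unmatched 10.7%, 9.96% and 11.8% in sperm and 17.7% and 17.5% in TM4. Genome-matched piRNA reads were thus the larger share in every sperm library, at 6.45% ± 2.39 (SD, n = 3) against 2.48% ± 0.0371 (SD, n = 2), and CD sperm replicate 2 had the most. The source of the unmatched reads was not tested.

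The miRNA profile of sperm was dominated by the mir-10 family. Of the miRNA reads, mir-10b, a hairpin within a Hox gene cluster, took 44.3%, 41.7% and 44.1% in sperm and 11% and 11.8% in TM4. mir-10a, its partner with the same seed, took 17.2%, 18.8% and 18.5% in sperm and 15.1% and 15.7% in TM4. The pair held 61.5% of the sperm miRNA reads, and the 10 most abundant hairpins 81.1%. In TM4 the 10 most abundant hairpins held 69.4%, led by mir-10a, mir-99b and mir-10b. The groups shared 7 of their 10 most abundant hairpins (mir-10a, mir-10b, mir-143, mir-191, mir-182, mir-22 and mir-99b). mir-148a, mir-486a and mir-486b were among the first 10 in sperm only, and mir-21a, mir-30a and mir-151 in TM4 only.

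Levels of single hairpins are given in RPM, reads per 1000000 clean reads that were not rRNA, and fold changes on the log2 scale as sperm over TM4. A feature was called when the adjusted p was under 0.05 and the fold over 2. The main test scaled the libraries by TMM over hairpins, and that scaling added 1.56 to the log2 fold change of the median hairpin compared with plain RPM. Of 590 hairpins tested, 228 (38.6%) were called higher in sperm and 180 (30.5%) lower, with a median log2 fold change of -0.13. On the plain scale 175 were called higher (29.7%) and 342 (58.0%) lower, with a median of -1.71. Called on both scales were 175 hairpins higher (29.7%) and 180 lower (30.5%), and no hairpin was called in opposite directions. Below, higher and lower refer to hairpins called on both scales unless a scale is named.

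Among the abundant hairpins, mir-10b stood at 228864, 200983 and 212071 in sperm and 61677 and 70469.5 in TM4 (log2 fold change 3.28 ± 0.15 SE, edgeR adjusted p = 2.3e-07). mir-148a, known for its abundance in secretory epithelia and other differentiated tissues, stood at 19302, 18214 and 19505 in sperm and 6578 and 6147 in TM4 (log2 fold change 3.15 ± 0.16 SE, edgeR adjusted p = 3.2e-07). The sperm and TM4 values of both hairpins lay apart in all 12 libraries of the series. mir-10a stood at 88652, 90457 and 88784 in sperm and 84862 and 94129 in TM4. Its groups overlapped, and its log2 fold change was 1.57 with TMM but -0.0032 on the plain scale. Of 8 listed hairpins of the mir-10 and mir-125 families, mir-10b and mir-99a were higher and mir-99b and mir-125b-1 lower, shares near the 29.7% and 30.5% over all hairpins.

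Other abundant hairpins were higher in TM4. mir-21a, known for its abundance in cultured and tumour cells, stood at 3769, 2955 and 3208 in sperm and 35223 and 37801 in TM4 (log2 fold change -1.88 ± 0.16 SE, edgeR adjusted p = 6.3e-06). mir-99b stood at 8800.0, 7414 and 5488 in sperm and 66119 and 73894 in TM4 (log2 fold change -1.70 ± 0.18 SE, edgeR adjusted p = 2.9e-05). mir-151, within the gene of focal adhesion kinase, stood at 1029, 1178 and 913 in sperm and 12583 and 12706 in TM4 (log2 fold change -2.04 ± 0.12 SE, edgeR adjusted p = 7.2e-07). For each the TM4 values were several times those of any sperm library. mir-22 had a negative log2 fold change on both scales but was called on the plain scale alone. It was -0.74 with TMM, short of the call, and -2.31 on the plain scale. mir-182 was 0.27 with TMM and -1.31 on the plain scale, and mir-143 1.05 and -0.52, so neither had a direction independent of scaling. TMM also moved when a TM4 library was left out. Without TM4 replicate 1 or replicate 2 it gave 0.65 and 0.74 for mir-10a, -1.63 and -1.61 for mir-22, 0.24 and 0.11 for mir-143 and -0.53 and -0.68 for mir-182. Without CD sperm replicate 1 or 2 it gave 0.705 and 0.90 for mir-143, below the call.

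A cluster of testis-expressed hairpins on the X chromosome was present in sperm and nearly absent from TM4. Its members summed to 1206, 4275 and 1758 RPM in sperm and 0.359 and 0.486 in TM4. mir-871, the most abundant, stood at 481, 2069 and 787 in sperm and 0.0999 and 0.117 in TM4. mir-470 stood at 287, 913 and 305 in sperm and 0 and 0.101 in TM4. mir-881 stood at 98.8, 251 and 161 in sperm and 0 and 0 in TM4, and against a floor of 3 reads per TM4 library its sperm mean was at least 3083-fold higher. CD sperm replicate 2 had the highest level of the cluster, above both other sperm libraries. All 20 listed members were tested and called higher on both scales, against 29.7% of all hairpins, and 12 of them had no read in either TM4 library. Each of the 20 had under 10 reads in both TM4 libraries and so passed the filter through the sperm libraries alone, which fixed their direction. Without CD sperm replicate 2 the filter passed 18 members, and 18 were called higher.

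The mir-34 and mir-449 hairpins are known from meiotic and later germ cells. mir-34c, the most abundant of them, stood at 783, 1329.6 and 1184 in sperm and 551 and 563 in TM4, and its log2 fold change was 2.55 with TMM and 0.98 on the plain scale, just short of the call. mir-34b stood at 133.9, 219.8 and 138 in sperm and 33.6 and 39.3 in TM4 (log2 fold change 3.73 ± 0.23 SE, edgeR adjusted p = 8.6e-07). mir-449a stood at 47.9, 83.5 and 74.1 in sperm and 6.07 and 6.88 in TM4 (log2 fold change 4.97 ± 0.28 SE, edgeR adjusted p = 6.2e-07). Of 5 listed members 4 were tested, and mir-34b and mir-449a were higher on both scales, against 29.7% of all hairpins. mir-449c stood at 2.47, 8.98 and 4.01 in sperm and 22.2 and 17.4 in TM4 and was lower on the plain scale alone. mir-34c was thus well measured in both TM4 libraries. mir-449c was also called lower with TMM without CD sperm replicate 2 (-1.19) or without TM4 replicate 2 (-1.48). Over the full list of 12 germ cell markers fixed for the check of cell type, 12 were higher with TMM and 11 on both scales, against 38.6% and 29.7% of all hairpins, 9 of the 12 having passed the filter through sperm alone.

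Hairpins of the imprinted Dlk1-Dio3 domain, whose miRNAs are expressed from the maternal allele, summed to 2096, 1865 and 1454 RPM in sperm and 10.4 and 10.5 in TM4. mir-127, the most abundant, stood at 831, 816 and 567 in sperm and 1.74 and 2.13 in TM4 (log2 fold change 10.14 ± 0.28 SE, edgeR adjusted p = 1.5e-08). mir-411 stood at 424, 326 and 295.3 in sperm and 1.06 and 1.51 in TM4 (log2 fold change 9.66 ± 0.32 SE, edgeR adjusted p = 4.1e-08). mir-434 stood at 277, 266 and 198 in sperm and 0.220 and 0.168 in TM4. Of 49 listed hairpins 35 passed the filter and 35 were called higher on both scales, against 29.7% of all hairpins. Since 26 of these had under 10 reads in both TM4 libraries, they had to differ, and the count describes the filter as much as the cluster.

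Beyond these groups, mir-204, known from retinal pigment epithelium, stood at 3386, 3459 and 3602 in sperm and 0.200 and 0.201 in TM4 (log2 fold change 15.63 ± 0.26 SE, edgeR adjusted p = 2.4e-09). mir-181c, chosen after its values were seen, stood at 1033, 1009 and 789 in sperm and 25.8 and 27.6 in TM4 (log2 fold change 6.71 ± 0.20 SE, edgeR adjusted p = 1.9e-08). Its paralogs mir-181a-1 and mir-181a-2, on other chromosomes, had log2 fold changes of 2.08 and 2.10 with TMM and 0.51 and 0.52 on the plain scale. Of 6 members of that family, mir-181c and mir-181d were higher on both, a share near the 29.7% over all hairpins, and 2, mir-181b-1 and mir-181b-2, were lower on the plain scale alone. With TMM 2 members were also called lower without CD sperm replicate 1 or without either TM4 library.

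Markers of other cell types were also in the sperm libraries. The epithelial mir-200 and mir-203/205 list summed to 5532, 5775 and 5179 RPM in sperm and 2.58 and 2.80 in TM4, and 7 of 7 members were higher on both scales, against 29.7% of all hairpins, 3 of them having passed the filter through sperm alone. mir-141 stood at 2194, 2081 and 1814 in sperm and 0.439 and 0.553 in TM4, mir-200c at 696, 819 and 768 in sperm and 0.280 and 0.520 in TM4 and mir-200b at 888, 1137 and 1029 in sperm and 0 and 0.0503 in TM4. mir-200a had no read in TM4 and stood at 672, 613 and 551 in sperm, at least 11109.5-fold higher against the floor of 3 reads per library. Across the 3 sperm libraries this list varied less than the X-linked cluster. The part of epithelial cells or their vesicles in these sperm libraries was not tested.

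Of the red blood cell markers, mir-451a stood at 596, 762 and 929.9 in sperm and 0.160 and 0.252 in TM4 and mir-144, from the same cluster, at 52.3, 71.7 and 88.2 in sperm and 0 and 0.0335 in TM4. mir-486a, which shares its locus and reads with mir-486b, stood at 7584, 5915 and 7806 in sperm and 806 and 822 in TM4. All 4 members of that list were higher on both scales, against 29.7% of all hairpins, mir-144 having passed the filter through sperm alone, which fixed its direction. In TM4 mir-486a was present and mir-451a and mir-144 were near 0. Of the white blood cell markers, mir-142a stood at 269, 277 and 233 in sperm and 0.839 and 0.805 in TM4 and mir-150 and mir-223 were also higher in sperm, mir-223 having passed the filter through sperm alone, whereas mir-155 stood at 4.80, 4.30 and 5.52 in sperm and 710.1 and 758.5 in TM4 (log2 fold change -5.65 ± 0.20 SE, edgeR adjusted p = 6.7e-08). The smooth muscle pair mir-143 and mir-145a summed to 26304, 20554 and 16155 RPM in sperm and 31248 and 29770.4 in TM4, with no member called on both scales. The striated muscle list summed to 16.5 to 19.7 in sperm and 1.38 and 1.71 in TM4, the sperm level being mostly that of mir-133a-1 and mir-133a-2, both called higher. mir-1a-1 and mir-1a-2 passed the filter through sperm alone and mir-206 through TM4 alone, which fixed their direction. The list held 5 tested members, and 3 without CD sperm replicate 1 or 3. The liver marker mir-122, which also passed through sperm alone, stood at 3.88, 1.98 and 2.78 in sperm and 0.0399 and 0.0168 in TM4. No hairpin list defined Sertoli cells, so the label of the TM4 line was not checked by a marker of its own.

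Lower in sperm were hairpin groups of dividing and mesenchymal cells. The mir-322 cluster on the X chromosome, whose mir-322 belongs to the mir-15/16 seed family, summed to 135, 165 and 114 RPM in sperm and 2917 and 3041 in TM4. mir-351 stood at 108, 133.3 and 93 in sperm and 2255 and 2288 in TM4 (log2 fold change -2.79 ± 0.14 SE, edgeR adjusted p = 3.4e-07). mir-450b stood at 2.40, 2.53 and 1.91 in sperm and 202 and 193.4 in TM4 (log2 fold change -4.87 ± 0.19 SE, edgeR adjusted p = 9.8e-08). All 7 listed hairpins of the cluster were tested and lower on both scales, against 30.5% of all hairpins, with a median log2 fold change of -2.93 against -0.13 over all hairpins tested.

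The mesenchymal hairpins mir-199a, mir-199b and mir-214 with mir-221 and mir-222 summed to 1331, 1219 and 987 RPM in sperm and 15229.8 and 16768 in TM4. mir-221 stood at 123, 129 and 121 in sperm and 2989 and 3079.9 in TM4 (log2 fold change -3.04 ± 0.13 SE, edgeR adjusted p = 1.3e-07) and mir-199a-2 at 359.9, 320.3 and 250.0 in sperm and 3310.0 and 3687 in TM4 (log2 fold change -1.92 ± 0.16 SE, edgeR adjusted p = 6.1e-06). All 6 hairpins of this group were lower on both scales, against 30.5% of all hairpins. The mir-17-92 cluster and its paralogs, linked to proliferation, summed to 2763, 3556 and 2739.6 RPM in sperm and 20742 and 21368 in TM4. Of 15 listed members 14 were tested, and 11 were lower, against 30.5% of all hairpins. By DESeq2 9 were lower, and with a filter of 100 reads 8 of 11. mir-93 stood at 195.4, 278 and 253 in sperm and 2757 and 3003 in TM4 (log2 fold change -2.002 ± 0.15 SE, edgeR adjusted p = 3.4e-06). mir-92a-1 stood at 1198, 1589 and 1110.0 in sperm and 8168 and 8057 in TM4 (log2 fold change -1.08 ± 0.14 SE, edgeR adjusted p = 8.6e-05), but its log2 fold change was short of the call by DESeq2 (-0.93) and with that filter (-0.86). mir-25 lost its call there too, at -0.95 and -0.88. mir-20b and mir-363, called higher, had at most 0.960 RPM in any sperm library and no read in TM4, and passed the filter through sperm alone, which fixed their direction. Without CD sperm replicate 1 and with the filter of 100 reads 0 members were called higher, and without CD sperm replicate 2 or 3 there was 1.

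mir-183 was lower in sperm and stood at 559, 598 and 539.2 in sperm and 11131 and 9429.9 in TM4 (log2 fold change -2.62 ± 0.14 SE, edgeR adjusted p = 4.7e-07), while its cluster partners mir-182 and mir-96 were called lower on the plain scale alone. In the mir-29 family, mir-29a, mir-29b-1 and mir-29b-2 were lower, against 30.5% of all hairpins, and mir-29c was not called on both scales. The largest changes toward TM4 by the naming rule included mir-344d-3, which stood at 0.0122, 0.0422 and 0.0242 in sperm and 85.1 and 94.1 in TM4, and mir-383 at 0.0369, 0.0422 and 0 in sperm and 45.1 and 38.0 in TM4. Each had 2 reads over the 3 sperm libraries and passed the filter through TM4 alone, which fixed its direction. mir-193a stood at 0.702, 1.05 and 0.541 in sperm and 138 and 118 in TM4 (log2 fold change -5.84 ± 0.26 SE, edgeR adjusted p = 1.8e-07). mir-1948 stood at 0.295, 0.801 and 0.758 in sperm and 131 and 133.8 in TM4.

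The let-7 family showed how the scaling sets a direction. It summed to 17810.4, 17941 and 17822 RPM in sperm and 19144 and 19511 in TM4, similar totals in both groups. With TMM 8 of 14 members were called higher and none lower, and on the plain scale none were higher and 5 lower, so let-7 had no direction. Over all hairpins 38.6% were higher and 30.5% lower with TMM, and 29.7% and 58.0% on the plain scale. With TMM without TM4 replicate 1 or replicate 2, 4 and 3 of 13 were higher and 2 and 3 lower. The mir-30 family was lower for 1 of 6 members on both scales, 5 of 6 on the plain scale and 3 of 6 with TMM without either TM4 library, against 30.5% of all hairpins lower on both scales. The mir-15/16 family was lower for 1 of 6 on both scales and 5 of 6 on the plain scale, and the mir-23/27/24 clusters for 2 of 6 and 4 of 6, against 30.5% and 58.0% of all hairpins. With TMM, leaving out either TM4 library gave 4 of 6 lower in each of these groups, so their counts too rest on the scaling and on single TM4 libraries. Of 72 tested hairpins of the mir-297, mir-466, mir-467 and mir-669 repeat families, whose reads can be split among near-identical copies, 5 were lower on both scales, against 30.5% of all hairpins. That count rests on the scaling and on the TM4 libraries. With TMM 9 members were called higher and 5 lower, on the plain scale 0 higher and 61 lower, and with TMM without TM4 replicate 1 or replicate 2 there were 36 of 65 and 47 of 64 lower. The mir-290 cluster of embryonic stem cells was at most 1.70 RPM in these 5 libraries.

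**Figure D2:**
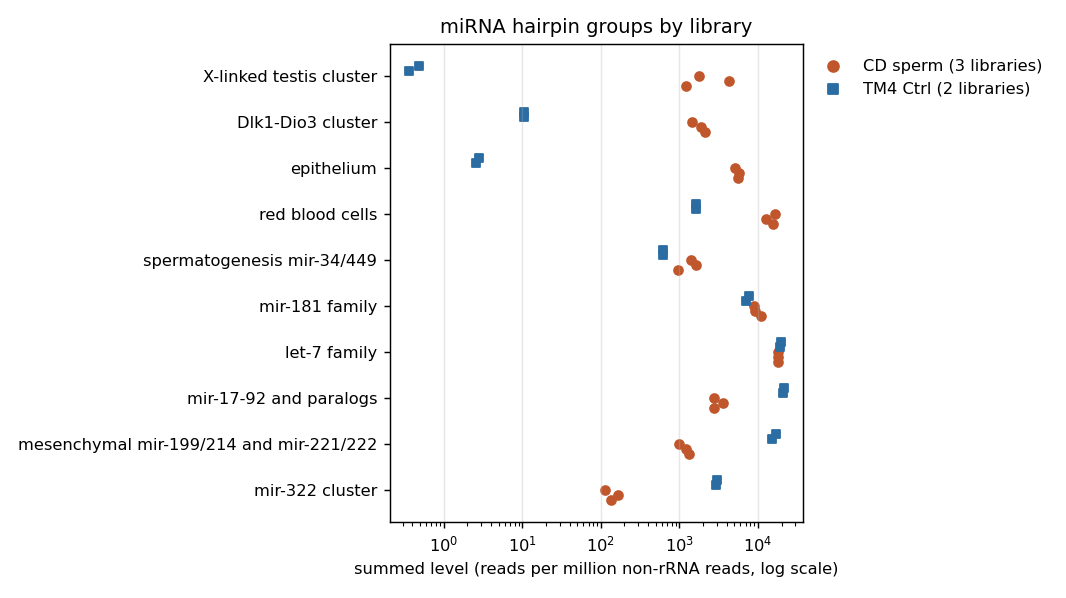
Summed level of each miRNA hairpin group (RPM, log scale) in the 3 CD sperm libraries (circles) and the 2 TM4 Ctrl libraries (squares). The X-linked, Dlk1-Dio3 and epithelial groups stand far to the right in sperm, the mir-322, mesenchymal and mir-17-92 groups in TM4, and the let-7 points of both groups lie close together.

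The tRNA reads of sperm were mostly 5′ fragments, and those of TM4 were split between 5′ fragments, 3′ fragments and reads from neither end. Of the mature-tRNA reads, tRF5s made up 77.1%, 69.8% and 79.8% in sperm and 39.4% and 26.4% in TM4. tRF3s, with those carrying the CCA tail, made up 1.64%, 3.41% and 1.19% in sperm and 23.9% and 36.0% in TM4. The remainder, from inside the tRNA, made up 21.3%, 26.8% and 19% in sperm and 36.7% and 37.7% in TM4. The groups did not overlap for any of the 3 kinds (exact permutation p = 0.2 each). In the treated TM4 cells the tRF5 share ran from 7.15 to 62.9%. The 3 HFD sperm libraries ran from 63.7 to 72.7%, so the gap between sperm and TM4 in this share was narrow once the TM4 cells with extra Ang, the gene of the tRNA-cutting enzyme angiogenin, were set beside them.

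**Figure D3:**
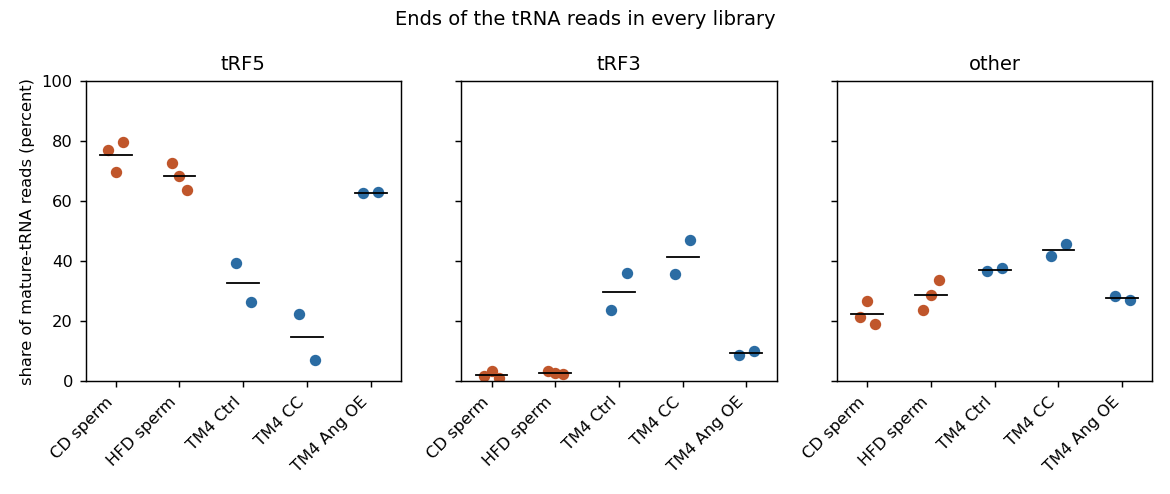
Share of the mature-tRNA reads (percent) that were tRF5, tRF3 or other in each of the 12 libraries by group, with a line at the group mean. All 6 sperm libraries lie above 63.0% tRF5 and below 4% tRF3, the TM4 Ctrl and TM4 CC libraries lie lower in tRF5 and higher in tRF3, and the 2 TM4 Ang OE libraries lie just below sperm in tRF5.

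In RPM, tRF5s stood at 118659, 75060.4 and 132312 in sperm and 10869 and 5972 in TM4, a ratio of means of 12.9. Internal fragments stood 3.33 times higher in sperm, and tRF3s 2.71 times higher in TM4. The 3′ difference depended on the tail. Fragments that ended in CCA stood at 1661, 1864 and 1343 in sperm and 6545 and 8118 in TM4, 4.52 times higher in TM4. Fragments that ended at the 3′ end without it stood at 872, 1798 and 623 in sperm and 39.2 and 29.0 in TM4, 32.2 times higher in sperm. CCA-tailed reads made up 50.9 to 68.3% of tRF3s in sperm and 99.4 and 99.6% in TM4. When the tailed fragments were fitted as a class of their own, 37 of 49 were lower in sperm and 2 higher, while 30 of 43 tail-less tRF3s were higher and 4 lower. Over all 186 fragments of that fit 52.2% were higher and 25.8% lower. Tail-less tRF3s were scarce in TM4, so some may have passed the filter through sperm alone, which would fix their direction on either scale. How many did so was not counted. Called also with TMM, an alternative added after the data were seen, were 37 tailed fragments lower and 1 higher, and 24 tail-less tRF3s higher and 4 lower, against 35.5% higher and 25.8% lower over all.

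Of 143 tRFs tested, each an isoacceptor and an end, 73 (51.0%) were called higher in sperm and 40 (28%) lower. The main test used the non-rRNA reads as library size, on which the median tRF had a log2 fold change of 1.17. TMM over tRFs lowered that median to -0.12 and gave 44 higher and 53 lower. Called on both scales were 44 tRFs higher (30.8%) and 40 lower (28%). By end, 23 of 44 tRF5s, 2 of 49 tRF3s and 19 of 50 internal fragments were higher on both scales. Lower on both were 4 tRF5s, 33 tRF3s and 3 internal fragments.

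**Figure D4:**
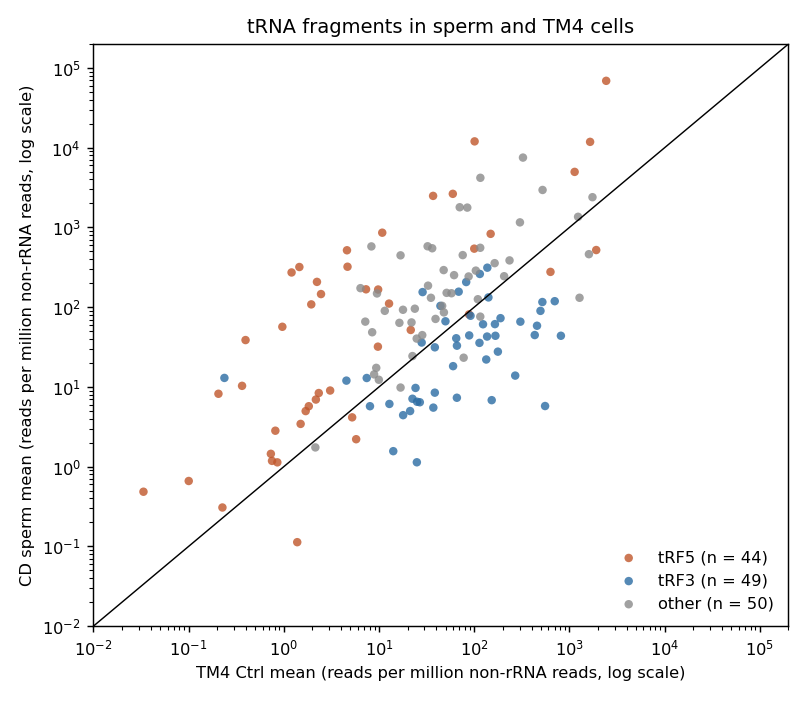
Mean level of each tested tRF in TM4 Ctrl (horizontal) and CD sperm (vertical), in RPM on log scales, with the line of equal levels. Most tRF5s and internal fragments lie above the line, and most tRF3s, counted with their CCA-tailed reads, lie below it.

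tRNA-Gly-GCC tRF5 was the leading fragment in both cell types and its share of the mature-tRNA reads was 50.1%, 41.0% and 51.7% in sperm and 10.7% and 8.41% in TM4. Its level was 77187, 44078 and 85788 in sperm and 2963 and 1906 in TM4 (log2 fold change 4.83 ± 0.67 SE, edgeR adjusted p = 1.1e-11). tRNA-Glu-CTC tRF5 stood at 14369, 7673 and 13987 in sperm and 117 and 84.6 in TM4 (log2 fold change 6.89 ± 0.63 SE, edgeR adjusted p = 1.0e-23). Fragments of both tRNAs are known to be abundant in mouse sperm. tRNA-Val-CAC tRF5 stood at 11421, 7809 and 16302 in sperm and 2303 and 996 in TM4 (log2 fold change 2.84 ± 0.51 SE, edgeR adjusted p = 1.2e-07), and as a share of tRNA reads it overlapped between the groups. CD sperm replicate 2 had the lowest level of all 3 fragments among the sperm libraries.

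By the naming rule, tRNA-Ser-GCT and tRNA-Leu-TAA tRF5 had the largest log2 fold changes, followed by tRNA-Glu-CTC tRF5. tRNA-Ser-GCT tRF5 stood at 241, 347 and 229 in sperm and 1.24 and 1.17 in TM4 (log2 fold change 7.82 ± 0.51 SE, edgeR adjusted p = 5.6e-41). tRNA-Leu-TAA tRF5 stood at 301, 393 and 263 in sperm and 1.54 and 1.38 in TM4 (log2 fold change 7.77 ± 0.51 SE, edgeR adjusted p = 1.1e-40). tRNA-Ser-AGA tRF5, more abundant, stood at 2537, 3109 and 1818 in sperm and 38.0 and 36.0 in TM4 (log2 fold change 6.07 ± 0.53 SE, edgeR adjusted p = 8.5e-26). For these, CD sperm replicate 2 had the highest level rather than the lowest. tRNA-Leu-AAG, tRNA-Leu-TAG, tRNA-Ser-TGA and tRNA-Ala-TGC tRF5 were also among the 8 largest changes, with log2 fold changes of 6.81, 6.54, 6.31 and 6.11. Also among them was an internal fragment of tRNA-Trp-CCA at 480.1, 742.9 and 511 in sperm and 8.97 and 7.66 in TM4.

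Not all tRF5s were higher in sperm. tRNA-Lys-CTT tRF5 was among the leading fragments of TM4 and stood at 494.6, 368 and 699 in sperm and 2473 and 1353 in TM4 (log2 fold change -1.88 ± 0.38 SE, edgeR adjusted p = 2.1e-06). The other tRF5s lower in sperm on both scales, outside the rule for named fragments, were those of tRNA-Gly-CCC, tRNA-Arg-TCT and tRNA-Phe-GAA. The last had 9 reads over the 3 sperm libraries and passed the filter through TM4 alone, which fixed its direction. tRNA-Gly-CCC tRF5 stood at 266, 231 and 334 in sperm and 761 and 505 in TM4 (log2 fold change -1.19 ± 0.35 SE, edgeR adjusted p = 0.0011). Glycine tRF5s thus differed in direction by anticodon, with GCC higher in sperm and CCC higher in TM4. Internal fragments of tRNA-Arg-CCT, scarce in sperm, stood at 135, 170.4 and 88.7 in sperm and 1245 and 1310.4 in TM4 (log2 fold change -3.28 ± 0.37 SE, edgeR adjusted p = 1.9e-16). Those of tRNA-Lys-TTT, which with tRNA-Arg-TCT completed the internal fragments lower on both scales, stood at 495.2, 506 and 386 in sperm and 1708 and 1498 in TM4 (log2 fold change -1.79 ± 0.38 SE, edgeR adjusted p = 4.2e-06). Internal fragments of tRNA-Glu-CTC had a log2 fold change of 0.46 (edgeR adjusted p = 0.3), and those of tRNA-Lys-CTT one of 0.14 (edgeR adjusted p = 0.73). Both turned negative with TMM.

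Among the 3′ fragments, tRNA-Glu-CTC tRF3 changed most and stood at 6.47, 5.70 and 5.10 in sperm and 619.5 and 491 in TM4 (log2 fold change -6.59 ± 0.41 SE, edgeR adjusted p = 8.7e-44). tRNA-Gly-TCC tRF3 stood at 35.5, 54.2 and 41.8 in sperm and 659.5 and 968 in TM4 (log2 fold change -4.22 ± 0.38 SE, edgeR adjusted p = 8.4e-25), and tRNA-Ala-TGC tRF3 at 119, 132 and 105.8 in sperm and 575 and 828 in TM4 (log2 fold change -2.56 ± 0.36 SE, edgeR adjusted p = 1.0e-11). With CCA-tailed reads taken out, the log2 fold change of tRNA-Gly-TCC tRF3 became 0.21 and that of tRNA-Ala-TGC tRF3 became 1.29 on the main scale. With TMM as well they were -1.17 and -0.07, so the tail-less fragments of these tRNAs had no direction independent of scaling. With genome-matched reads alone that of tRNA-Glu-CTC tRF3 was -0.66, that of tRNA-Glu-TTC tRF3 -0.30 and that of tRNA-Asp-GTC tRF3 -0.58, none of them called. The tRF3s higher in sperm on both scales were those of tRNA-Thr-TGT at 129, 261 and 73.9 in sperm and 24.1 and 33.3 in TM4 and of the scarce tRNA-SeC-TCA. tRNA-Glu-TTC, tRNA-Asp-GTC, tRNA-Phe-GAA, tRNA-Ser-GGA and tRNA-Arg-CCT tRF3 were also among the 8 largest changes toward TM4, with log2 fold changes of -4.48, -4.28, -3.27, -3.17 and -4.46. Without the tailed reads tRNA-Glu-TTC, tRNA-Asp-GTC and tRNA-Phe-GAA were at -0.81, -0.58 and -0.45 on the main scale, no longer called, and tRNA-Arg-CCT was at 1.12. With TMM as well the first 3 were at -2.20, -1.93 and -1.78, called again, and tRNA-Arg-CCT at -0.22.

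The end from which a tRNA was read could therefore differ between cell types for one and the same isoacceptor. Of the tRNA-Glu-CTC reads, 82.4% were tRF5 in sperm against 4.2% in TM4, where 72.5% were internal and 23.3% tRF3 (means of 3 and 2 libraries). Of the tRNA-Ala-TGC reads, 62.0% were tRF5 in sperm and 94.0% were tRF3 in TM4. tRNA-Gly-GCC was read mostly as tRF5 in both, at 89.8% and 74.9%. tRNA-Val-CAC, at 73.9% and 84.9%, was the more often tRF5 in TM4. tRNA-His-GTG was read mostly from the inside, with 78.0% and 75.1% internal in sperm and TM4.

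By amino acid, the share of glycine tRNAs among mature-tRNA reads was 56.5%, 47.5% and 57.1% in sperm and 20.6% and 21.6% in TM4. Lysine tRNAs took 1.68%, 2.20% and 1.55% in sperm and 21.0% and 18.2% in TM4, alanine tRNAs 0.715%, 1.38% and 0.551% in sperm and 5.50% and 9.40% in TM4 and arginine tRNAs 0.265%, 0.502% and 0.169% in sperm and 6.14% and 7.63% in TM4. Glycine was thus the larger in sperm and the other 3 in TM4, without overlap (exact permutation p = 0.2 each, 0.287 after adjustment over 23 families). Glutamate and histidine shares overlapped, with means of 10.8 and 11% for glutamate. The initiator methionine tRNA took 1.44% ± 0.439 (SD, n = 3) in sperm and 0.339% ± 0.0282 (SD, n = 2) in TM4, whereas elongator methionine tRNAs took 0.0752% ± 0.0390 (SD, n = 3) in sperm and 0.280% ± 0.0525 (SD, n = 2) in TM4. The 2 methionine tRNAs thus lay on opposite sides, and neither pair of groups overlapped. tRNA-SeC, which carries selenocysteine, took 0.182% ± 0.0851 (SD, n = 3) in sperm and 0.0306% ± 0.00513 (SD, n = 2) in TM4.

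Ribosomal fragments came from different parts of the ribosome in the 2 cell types. In sperm, 28S rRNA, of the large subunit, made up 59.6 to 61.5% of the rRNA reads against 20.9 and 19.2% in TM4. 18S rRNA, of the small subunit, made up 24.4%, 23.4% and 21.7% in sperm and 3.18% and 3.62% in TM4. 5.8S rRNA, the short partner of 28S, made up 4.63%, 5.34% and 4.40% in sperm and 49.3% and 52.4% in TM4, and led the rRNA reads of TM4. None of these subclasses overlapped between the groups (exact permutation p = 0.2 each). The 45S precursor made up 4.30% ± 0.119 (SD, n = 3) in sperm and 16.7% ± 1.93 (SD, n = 2) in TM4.

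Per 1000000 clean reads, rRNA included, 18S stood at 60227, 59073 and 35869 in sperm and 2358 and 2495 in TM4 (log2 fold change 4.41 ± 0.33 SE, edgeR adjusted p = 6.8e-06). 28S stood at 149305, 150345 and 101609 in sperm and 15485 and 13238 in TM4 (log2 fold change 3.22 ± 0.29 SE, edgeR adjusted p = 9.2e-06). 5S, transcribed apart from the other rRNAs, stood at 11134, 12950.2 and 7649 in sperm and 3024 and 2900.5 in TM4 (log2 fold change 1.84 ± 0.27 SE, edgeR adjusted p = 0.00017). All 3 were higher in every sperm library. 5.8S stood at 11452, 13464 and 7267 in sperm and 36511 and 36099 in TM4 (log2 fold change -1.76 ± 0.27 SE, edgeR adjusted p = 0.00025), and 4.5S, a short rodent RNA, at 393, 714 and 502 in sperm and 2469 and 2755 in TM4 (log2 fold change -2.28 ± 0.26 SE, edgeR adjusted p = 3.3e-05). These were higher in both TM4 libraries. 45S did not pass the test (log2 fold change -0.33 ± 0.24 SE, edgeR adjusted p = 0.23). Of the 100 subclasses outside tRFs and hairpins that were tested, 37 (37.0%) were called higher and 27 (27%) lower.

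Genome matching bore on these values. Only 1.53% of 5.8S reads in sperm and 0.439% in TM4 matched the genome (means), against 96.2 and 92.5% of 18S reads and 34.4 and 58.4% of 28S reads. With genome-matched reads alone the 5.8S log2 fold change was 0.02, and the share of 28S among rRNA reads turned to the lower side in sperm, by 4.37 percentage points. The 18S share kept its direction.

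**Figure D5:**
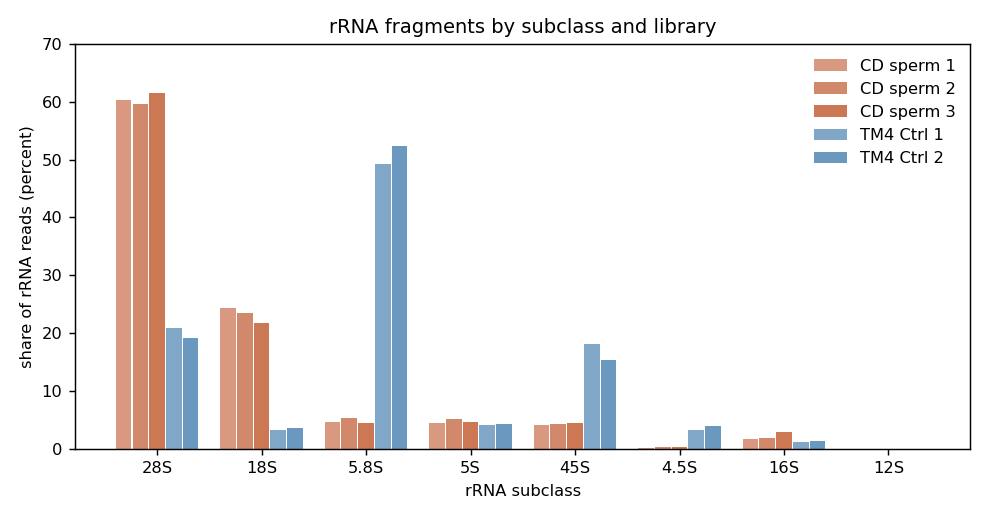
Share of the rRNA reads (percent) from each rRNA subclass in the 3 CD sperm and 2 TM4 Ctrl libraries, 16S and 12S being mitochondrial. 28S and 18S lead in sperm, and 5.8S and then 28S and 45S lead in TM4.

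Mitochondrial rRNA was the higher in sperm, and mitochondrial tRNA fragments were split. Per 1000000 clean reads, 16S rRNA, of the large mitochondrial subunit, stood at 4247, 4825 and 4870.3 in sperm and 875 and 884 in TM4 (log2 fold change 2.40 ± 0.20 SE, edgeR adjusted p = 8.7e-06). 12S rRNA, of the small one, stood at 105.8, 102 and 63.1 in sperm and 2.14 and 1.75 in TM4 (log2 fold change 5.54 ± 0.36 SE, edgeR adjusted p = 4.2e-06). Both were higher in every sperm library. Mitochondrial tRNAs as a class took 0.197%, 0.215% and 0.206% in sperm and 0.359% and 0.287% in TM4, lower in sperm without overlap.

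The ends of mitochondrial tRNAs differed between the groups without overlap. tRF3s made up 14.9% ± 1.26 (SD, n = 3) in sperm and 71.1% ± 3.64 (SD, n = 2) in TM4. Internal fragments made up 59.2% ± 3.55 (SD, n = 3) in sperm and 14.3% ± 2.24 (SD, n = 2) in TM4, and tRF5s 25.9% ± 2.33 (SD, n = 3) in sperm and 14.6% ± 1.40 (SD, n = 2) in TM4. The tRF3 share was the larger in TM4 for mitochondrial and nuclear tRNAs, whereas the internal share was the larger in sperm for mitochondrial tRNAs and the larger in TM4 for nuclear ones. Mitochondrial fragments were named after their values were seen. The most abundant in TM4 came from tRNA-Val, whose tRF3 stood at 96.3, 108 and 125.2 in sperm and 2182 and 1876 in TM4 (log2 fold change -4.21 ± 0.21 SE, edgeR adjusted p = 9.2e-07). tRNA-Trp tRF3 stood at 41.5, 59.5 and 51.1 in sperm and 159.7 and 149.9 in TM4 (log2 fold change -1.61 ± 0.22 SE, edgeR adjusted p = 0.00012). These were the lower in sperm, whereas internal fragments of tRNA-Leu(TAG) stood at 51.6, 50.4 and 33.2 in sperm and 1.78 and 1.06 in TM4 (log2 fold change 4.99 ± 0.38 SE, edgeR adjusted p = 6.8e-06) and those of tRNA-Gly at 179, 147 and 166 in sperm and 22 and 13.4 in TM4 (log2 fold change 3.21 ± 0.29 SE, edgeR adjusted p = 9.2e-06), higher in every sperm library. Internal fragments of tRNA-Val itself did not pass the test (log2 fold change 0.41 ± 0.24 SE, edgeR adjusted p = 0.14).

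The genes of the tRNAs with the most abundant tRF3s in TM4 are printed from the GENCODE vM39 transcripts with the anticodon, the match nearest to the middle, in capitals.
mt-Tv: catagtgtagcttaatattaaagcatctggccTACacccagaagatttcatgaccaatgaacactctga
mt-Tw: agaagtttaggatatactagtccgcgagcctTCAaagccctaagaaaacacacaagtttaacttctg
Neither gene ends in CCA. Of all mitochondrial tRNA reads 72.3% matched the genome in sperm and 20.8% in TM4 (means). With genome-matched reads alone the class share was 0.103 percentage points higher in sperm, the opposite direction.

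Among the remaining classes, Y RNAs, short noncoding RNAs that bind the Ro protein, differed by member. Per 1000000 clean reads, RNY3 stood at 351.04, 357 and 349 in sperm and 90.8 and 90.5 in TM4 (log2 fold change 1.96 ± 0.19 SE, edgeR adjusted p = 1.4e-05), and RNY1 at 576, 733 and 745 in sperm and 641 and 559.5 in TM4 (log2 fold change 0.19 ± 0.20 SE, edgeR adjusted p = 0.4). RNY3 was higher in every sperm library, and RNY1 overlapped. Ensembl snoRNAs stood at 6505, 7826 and 8257 in sperm and 30072 and 29451 in TM4 (log2 fold change -1.98 ± 0.20 SE, edgeR adjusted p = 1.9e-05), all sperm libraries being lower. Precursor tRNA reads, from tRNA transcripts not yet trimmed, took 0.000317% ± 4.77e-05 (SD, n = 3) in sperm and 0.00362% ± 0.000391 (SD, n = 2) in TM4. pre-tRNA-Arg-TCT stood at 0.500, 0.0631 and 0.151 in sperm and 15.8 and 14.7 in TM4. With 10 reads or more in only 1 sperm library it passed the filter through TM4, where it was high, so no test is given. pre-tRNA-Tyr-GTA, the other leading precursor, stood at 1.11, 1.48 and 0.784 in sperm and 18.7 and 15.8 in TM4 (log2 fold change -3.94 ± 0.32 SE, edgeR adjusted p = 6.8e-06). pre-tRNA-Ile-TAT stood at 1.06, 1.32 and 1.24 in sperm and 1.53 and 1.11 in TM4, overlapped between the groups and did not pass the test (log2 fold change -0.13 ± 0.28 SE, edgeR adjusted p = 0.67).

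The directions were looked for in the 7 libraries that the comparison had not used, with 3 HFD sperm libraries against the 4 TM4 libraries given Compound C or extra Ang. Calls in that second comparison used the main scale of each kind alone, TMM for hairpins, and not both scales. A repeated call therefore met a looser rule than the first. There 73 of 143 tRFs (51.0%) were called higher in sperm and 32 (22.4%) lower, and of 621 hairpins 220 (35.4%) higher and 196 (31.6%) lower. Of the 44 tRFs higher on both scales in the first comparison, 44 had the same sign in the second and 41 were called. Of the 40 lower, 40 had the same sign and 32 were called. Of the 175 hairpins higher, 168 were tested, all 168 with the same sign and called. Of the 180 lower, 179 were tested, all with the same sign and 159 called. Of 104 other subclasses 47 (45.2%) were called higher there and 16 (15.4%) lower. Of the 37 higher in the first comparison, 37 had the same sign and 36 were called, and of the 27 lower, 27 had the same sign and 15 were called. These libraries also differed in cell type, source and treatment, so the second comparison shares those differences with the first.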

How the data were processed

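Small RNA libraries (TruSeq Small RNA) of CD sperm and TM4 Ctrl cells were analysed from 1 summary per library. The deposited values are estimated counts: the authors trimmed the reads with Trimmomatic 0.40, checked them with FastQC 0.12.0 and annotated them with SPORTS1.1, a read that matched several subclasses being divided among them. The submitters' processing notes name mm10. The methods name a batch correction for the cell lines without naming batches, and whether it was applied to these summaries was not given in the sources used here.

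Counts were rounded and tested with edgeR 4.0.16 (glmQLFit and glmQLFTest, R 4.3.3) after a filter of 10 reads in at least 2 libraries, with Benjamini-Hochberg adjustment over all features of a kind. tRFs used clean reads without rRNA as library size, miRNA hairpins TMM, and other subclasses all clean reads. DESeq2 1.42.0 was an alternative. Shares were tested with scipy 1.17.1 (exact permutation). The tests were checked on simulated counts with random changes of 2 on the log2 scale in either direction. They recovered 26 of 30 changed tRFs, 188 of 193 hairpins and 19 of 20 other subclasses, with 1, 6 and 0 false calls. Such mixed changes do not test the choice of scaling, on which many calls here depended. The groups, lists and named features (the 10 most abundant of each group, the 8 largest called changes in each direction with at least 1000 reads, the rRNA subclasses, and 1 to 4 leading members of each list) were chosen with earlier results of these data known. Floors of 3 reads cover counting error only. Mature miRNA sequences were looked up by name in RefSeq (GRCm38.p6), and 30 of 30 matched. Nuclear tRNA sequences were not used here. A purification of the sperm beyond release into buffer and centrifugation was not given in the sources used here.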

Additional observations from a re-analysis of the deposited data

How the results depend on the processing

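Of 117 named features, 83 kept direction and call under every alternative in which they were tested. An alternative that dropped a feature did not count against it. With a filter of 100 reads, for example, 15 X-linked hairpins were tested, against 20. The 117 also include features whose direction the filter fixed. The count of tRFs higher in sperm was 44 with TMM over tRFs and 47 with DESeq2 and its own size factors, against 73, and the count lower was 21 with genome-matched reads alone and 71 with CCA-tailed fragments as a class of their own under TMM, a pairing added after the data were seen, against 40. For hairpins a filter of 100 reads left fewer tested and gave 150 higher and 107 lower, and plain RPM gave 342 lower, against 228 and 180. With the replicate number as a block the tRF test called 71 higher and 36 lower, the hairpin test 225 and 146 and the subclass test 35 and 27. Deviations of same-numbered libraries correlated at -0.087 and 0.426 for tRFs, -0.093 and -0.015 for hairpins and -0.055 and 0.358 for subclasses. With so few libraries per group, these mixed values cannot decide whether same-numbered libraries shared a batch. The log2 fold change of tRNA-Glu-CTC internal fragments was -0.73 with TMM, -0.89 with TMM and the tailed class and -0.46 with DESeq2 size factors. That of tRNA-Lys-CTT internal fragments was -1.03 with TMM, -1.199 with TMM and the tailed class, -0.11 with all clean reads and -0.77 with DESeq2, and -0.0402 to 0.347 with 1 library left out. With CCA-tailed fragments as a class of their own, tRNA-Gly-TCC, tRNA-Ala-TGC and tRNA-Arg-CCT tRF3 were at 0.21, 1.29 and 1.12. On plain RPM mir-10a was at -0.0032, mir-143 at -0.52, mir-182 at -1.31 and mir-669c at -0.0498. mir-182 was at -0.37 with no filter and -0.68 to 0.194 with 1 library left out. With the filter of 100 reads mir-30d was at 0.0146 and mir-145a at 0.0377. With genome-matched reads alone 45S and 5.8S rRNA were at 0.0118 and 0.0166.

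Differences of shares, sperm minus TM4 in percentage points, turned in these cases. With genome-matched reads alone the difference was 5.09 for piRNA, 0.103 for mitochondrial tRNA, 1.06 for unannotated reads, 1.33 for glutamate tRNAs, and -0.449, -4.37 and -6.71 for 16S, 28S and 5S among rRNA reads. For piRNA it was 0.567 as a share of reads without rRNA, and for tRF3 0.736 with CCA-tailed fragments counted as internal. With 1 library left out it ran from -0.726 to 0.455 for glutamate, -0.649 to 0.575 for histidine and -0.00982 to 6.06 for valine tRNAs. The cause of these changes was not tested, apart from the reads that each alternative leaves out or moves by its construction.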

Other observations

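mir-375, known from endocrine cells and epithelia and chosen here after its values were seen, had RPM values of 3044, 3213 and 2411 in sperm and 0.320 and 0.235 in TM4. mir-7217, named for its large change, stood at 37.8, 112 and 38.7 RPM in the sperm libraries and had no read in TM4. It passed the filter through sperm alone, which fixed its direction, and its level was highest in CD sperm replicate 2. Toward TM4, mir-6539 had RPM values of 0.628, 1.48 and 0.469 in sperm and 173 and 179.7 in TM4.

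Some scarcer tRNA families lay far apart between the groups. Of the mature-tRNA reads, phenylalanine tRNAs took 0.0822%, 0.127% and 0.0601% in sperm and 1.81% and 2.65% in TM4, and aspartate tRNAs 0.308%, 0.463% and 0.231% in sperm and 2.04% and 2.17% in TM4. tRNA-Ser-AGA reads were 97.4% tRF5 in sperm and 35.2% in TM4 (means of 3 and 2 libraries), and tRNA-Lys-CTT reads went the other way, with 26.8% and 59.3%.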
